A study of Mus musculus with 12 samples.

Results

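The 10 genes described here encode transcription factors of the myeloid lineage, the branch of blood formation that yields neutrophils, monocytes and their relatives, and were followed in whole bone marrow cells of B6 mice. The genes were Cebpa, Cebpb, Cebpd, Cebpe, Spi1, Gfi1, Irf8, Klf2, Klf4 and Klf6, chosen by name as known myeloid regulators, and they are 10 of the 21853 genes in the deposited expression table. All 10 passed the filter on low values, as did 10994 genes in all, and no member was listed at 0 in any library. RNA was sequenced from 4 groups of 3 libraries. The control group had neither irradiation nor DEIX. The TBI group received total body irradiation with 5 Gy of gamma rays at 0.66 Gy per minute and 100 µL of olive oil by mouth. The TBI+DEIX group was irradiated likewise and took DEIX orally at 25 mg per kg each day over 14 days. The DEIX group took the compound without irradiation. The series title names the compound deinoxanthin, a carotenoid pigment, and the marrow was collected 14 days after irradiation. A vehicle is named for the TBI group alone. Whether the DEIX groups had oil or another vehicle is not stated. The oil therefore cannot be told apart from irradiation in TBI against control. Any difference in vehicle cannot be told apart from DEIX in TBI+DEIX against TBI, nor in either DEIX group against control. The difference between the DEIX effects in irradiated and unirradiated mice contains the TBI group, so the same holds for it. The labels do not say whether the 3 libraries of a group came from 3 mice, and p-values then measure only the spread between these libraries. Each library mixes every cell type of the marrow.

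Stem cells enter the myeloid lineage under the joint action of PU.1 (encoded by Spi1) and C/EBPα (Cebpa), which open and activate the genes of granulocytes and monocytes. Progenitors then take one of several routes. Gfi1, a repressor, and C/EBPε (Cebpe), an activator of granule genes, act in the neutrophil route, whereas IRF8 and KLF4 act in monocytes, and IRF8 also in dendritic cells. C/EBPβ (Cebpb) drives granulocyte output under stress, C/EBPδ (Cebpd) is an inflammation-induced relative, and KLF2 and KLF6 are zinc finger factors that restrain and promote, in that order, the inflammatory state of myeloid cells.

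The values are FPKM, mapped fragments divided by transcript length and by the size of the library, so they can be compared between genes, but each is relative to the rest of its library. The sums of FPKM ranged from 493683 to 848843 per library, and 10359 to 10832 genes reached 1 FPKM. Total read numbers are unknown. TBI+DEIX replicate 1 stood apart: its median correlation with the other 11 libraries on the log2(FPKM + 1) scale was 0.936, against 0.962 to 0.979 for the rest, and results that rest on it are given also without it. Pooled over the 10 members as a root mean square, the SD of log2(FPKM + 1) within a group was 0.162 in control, 0.213 after TBI, 0.487 after TBI+DEIX and 0.236 with DEIX alone. Marker genes fitted the labelled tissue: those of neutrophils, monocytes, erythroid cells, B cells and platelets were all detected.

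Differences were tested with limma on log2(FPKM + 1) in 1 model of the 4 group means, and a gene was called when its Benjamini-Hochberg adjusted p over all 10994 tested genes was under 0.05. Log2 changes below are differences on that scale and folds are taken from them. Comparisons that share a group are not independent of each other.

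Spi1 had the highest level of the 10 genes in 10 of 12 libraries, and Cebpe in the other 2, TBI replicates 2 and 3. In control marrow the order of mean FPKM was Spi1, Cebpe, Irf8, Klf2, Klf6, Cebpd, Cebpb, Cebpa, Gfi1 and Klf4. The ranges of Spi1 and Cebpe overlapped in that order, as did those of Irf8 and Klf2, of Cebpd and Cebpb, and of Gfi1 and Klf4. Klf4 was the lowest of the 10 in 8 libraries. Irf8 held rank 3 in every control library but ranks 7 to 9 in the TBI+DEIX libraries. Summed over the 10 genes, the level was 621 to 762 FPKM in control, 627 to 760 after TBI, 708 to 1013 after TBI+DEIX and 771 to 920 with DEIX alone.

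**Figure D1:**
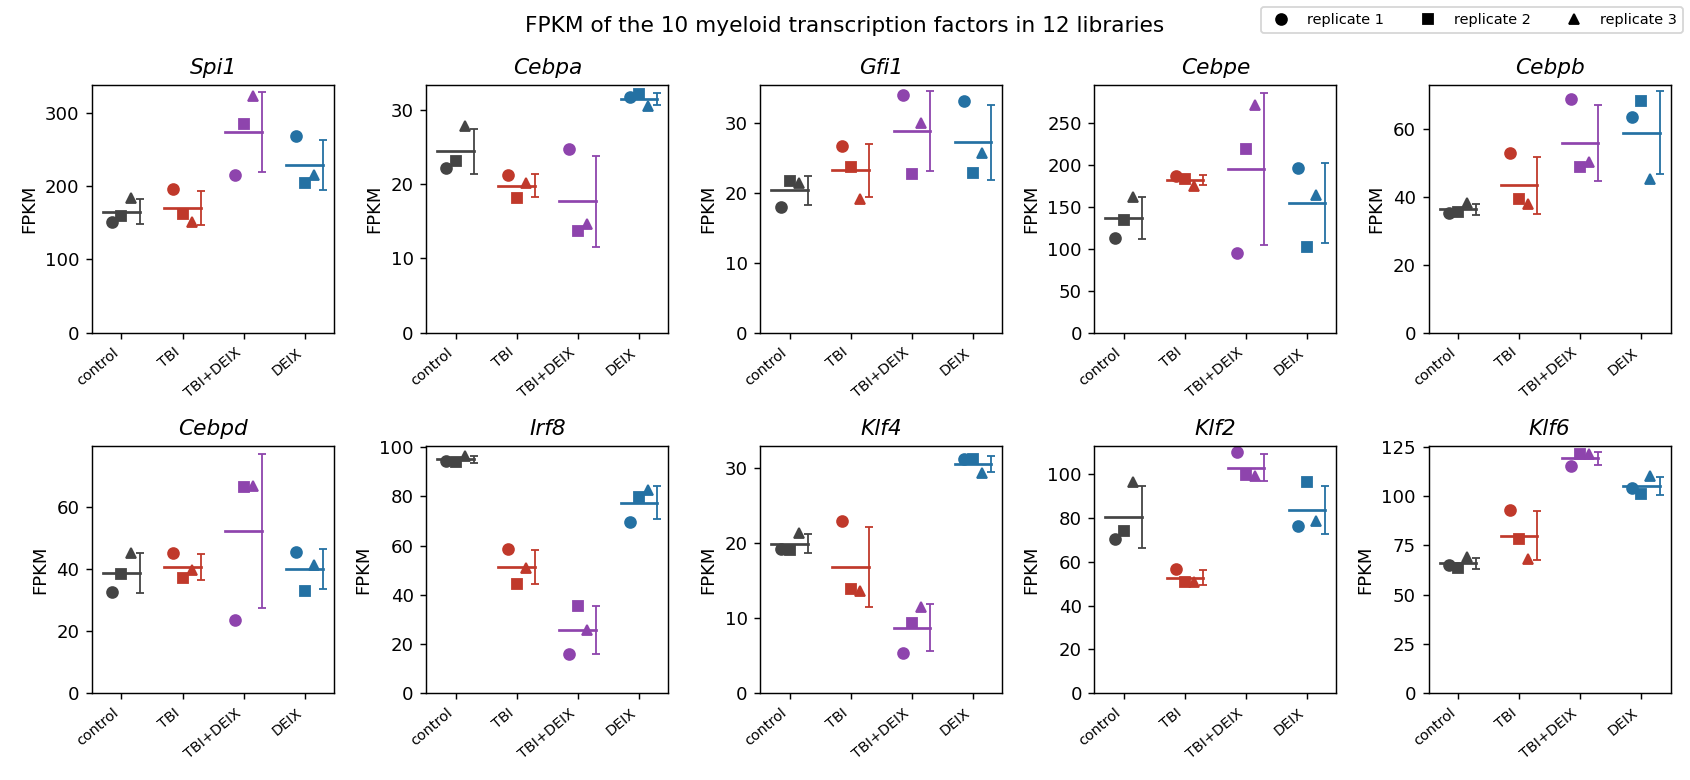
FPKM of each of the 10 genes (vertical axes, linear and starting at 0) in the 4 groups, with replicates 1, 2 and 3 as circle, square and triangle, bars for the mean and error lines for the SD of 3 libraries. Irf8 lies between 94.2 and 96.6 in control and between 15.8 and 35.6 in TBI+DEIX, while Klf6 lies between 63.4 and 68.8 in control and between 115 and 121 in TBI+DEIX.

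Irf8 and Klf4, factors of monocytes and dendritic cells, were lower in TBI+DEIX than in each of the other groups. Irf8 (ENSMUSG00000041515.10, chr8:120736358-120756694, plus strand, GRCm38) fell 3.77-fold from control to TBI+DEIX, and Klf4 (ENSMUSG00000003032.8, chr4:55527143-55532466, minus strand) fell 2.24-fold. IRF8 is required for monocytes and for several dendritic cell types, and KLF4 for inflammatory monocytes. In whole marrow, fewer cells of a type and less RNA per cell cannot be told apart.

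The Irf8 start region is shown because it holds a pair of GAS elements close together, and the Klf4 region because its GC boxes are the kind of element that zinc finger factors of the SP and KLF family bind. Each sequence below is 200 bases, from 250 to 51 bases before the RefSeq transcript start, on the gene's strand in GRCm38.p6. RefSeq gave such windows for 7 of the 10 genes, and Cebpd, Cebpe and Spi1 had no entry. Capitals in the Irf8 window, at chr8:120736108-120736307 on the plus strand, mark 2 GAS elements (TTCNNNGAA, where N is any base) and 1 GC box (GGGCGG, here on the opposite strand). Capitals in the Klf4 window, at chr4:55532526-55532725 on the minus strand, mark 4 GC boxes, 2 of which share 1 base, and 1 CRE core (TGACG, on the opposite strand).
Irf8: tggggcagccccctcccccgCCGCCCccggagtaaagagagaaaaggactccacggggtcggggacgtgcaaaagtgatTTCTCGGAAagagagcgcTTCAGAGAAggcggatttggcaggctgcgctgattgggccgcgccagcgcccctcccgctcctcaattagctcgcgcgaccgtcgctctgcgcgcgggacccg
Klf4: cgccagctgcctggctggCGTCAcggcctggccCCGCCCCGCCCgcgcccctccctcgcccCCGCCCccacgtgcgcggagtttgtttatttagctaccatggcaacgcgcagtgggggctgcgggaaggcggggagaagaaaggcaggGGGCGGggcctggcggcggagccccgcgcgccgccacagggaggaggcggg
The GAS elements lay 171 to 163 and 153 to 145 bases before the start. With both strands searched, a GAS element was found in 5.76% of all 32851 RefSeq windows of this length, a GC box in 24.6% and a CRE core in 12.7%. A match is a run of letters and says nothing of binding in these samples. The second RefSeq starts of Irf8 and Gfi1 held none of the 7 motifs searched.

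Irf8 was at 94.3, 94.2 and 96.6 FPKM in control replicates 1 to 3 and at 58.5, 44.4 and 51 after TBI. It was at 15.8, 35.6 and 25.8 FPKM in TBI+DEIX and at 69.8, 79.8 and 82.7 with DEIX alone. The 4 groups did not overlap, and the order was control, DEIX, TBI and TBI+DEIX from high to low. Against TBI, the TBI+DEIX level was lower by a log2 change of -1.03 (SE 0.22, adjusted p = 0.024), 2.04-fold lower. Against control the change was -1.92 (SE 0.22, adjusted p = 0.000316), and against DEIX it was -1.62 (SE 0.22, adjusted p = 0.00639), 3.07-fold lower. Irradiation alone gave -0.88 (95% interval -1.37 to -0.39, adjusted p = 0.053), which missed the threshold although no library overlapped. It passed in 4 of 14 alternatives, on the TPM scale (adjusted p = 0.02), with median-of-ratios scaling (0.0496), with array weights (8.34e-06) and with only the 2 groups in the fit (0.0022). DEIX alone gave -0.30 (95% interval -0.79 to 0.19, adjusted p = 0.45). Leaving out TBI+DEIX replicate 1, the library lowest in Irf8, gave -0.73 against TBI (adjusted p = 0.00895) and -1.62 against control. The call against TBI was lost without TBI replicate 1 (adjusted p = 0.0508), TBI replicate 3 (0.105) or TBI+DEIX replicate 3 (0.0689), and with only the 2 groups in the fit (0.155). A readthrough gene, Gm20388, covers Irf8 on the same strand and was listed at 7.1 FPKM in TBI+DEIX replicate 1 and at no more than 1.45 elsewhere. Irf8 and Gm20388 together came to 22.9 FPKM in that library, still the lowest of the 12.

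Klf4 was at 19.3, 19.1 and 21.4 FPKM in control and at 23.0, 13.9 and 13.6 after TBI. It was at 5.35, 9.37 and 11.5 FPKM in TBI+DEIX and at 31.3, 31.2 and 29.4 with DEIX alone. All TBI+DEIX libraries lay below all others and all DEIX libraries above all others, whereas TBI and control overlapped. TBI+DEIX was lower than TBI by a log2 change of -0.89 (SE 0.24, adjusted p = 0.0434), 1.86-fold. It was lower than control by -1.16 (SE 0.24, adjusted p = 0.00456) and lower than DEIX by -1.76 (SE 0.24, adjusted p = 0.00587), 3.38-fold. DEIX alone gave 0.60 (95% interval 0.08 to 1.11, adjusted p = 0.147) and irradiation alone gave -0.27 (95% interval -0.79 to 0.25, adjusted p = 0.596). When TBI+DEIX replicate 1 was left out, the change was -0.61 against TBI (adjusted p = 0.0358) and -1.48 against DEIX (adjusted p = 0.0025). Leaving out any 1 of the other 5 libraries ended the call against TBI (adjusted p from 0.0531 to 0.11), as did the replicate block, the fit with no filter (0.0753 in each) and the fit on the 2 groups alone (0.202).

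Marker genes of dendritic cells and monocytes were counted from lists. Of 10 tested dendritic cell genes, 7 fell from control to TBI+DEIX, as did 13.1% of all genes, with a median log2 change of -1.16 against 0.02 over all genes. Siglech, a plasmacytoid dendritic cell receptor, was at 26.6 ± 1.37 FPKM in control, 8.98 ± 1.33 after TBI, 3.54 ± 2.08 after TBI+DEIX and 16.3 ± 2.36 with DEIX alone (SD, n = 3). Tcf4, the factor that sets plasmacytoid identity, was at 20.5 ± 1.60, 11.9 ± 2.45, 7.49 ± 1.12 and 13.8 ± 0.176 FPKM in the same order. The means of both followed the order of Irf8 over the groups, but other genes of the list did not. Cd74, the invariant chain of class II presentation, had means of 425 FPKM in control, 192 after TBI, 329 after TBI+DEIX and 275 with DEIX alone. The class II genes H2-Aa and H2-Ab1 were likewise no lower on average in TBI+DEIX (106 FPKM for each) than in TBI (95.6 and 91.6), and Flt3 was at 8.91 with DEIX alone against 7.71 in control. The summed level of all 11 listed dendritic cell genes was 842 to 994 FPKM in control, 301 to 533 after TBI, 173 to 804 after TBI+DEIX and 452 to 633 with DEIX alone. Of 13 monocyte and macrophage genes, 4 fell from control to TBI+DEIX and 3 fell against DEIX, with medians of -0.55 and -1.32, beside 13.1% and 1.76% of all genes called lower. Without TBI+DEIX replicate 1, a choice made after seeing the data, the medians were -0.16, with 2 genes higher and 4 lower, and -0.56, with 7 lower. That fit called more genes of any kind: 23.2% higher and 15.3% lower in TBI+DEIX against control, 16.2% and 9.59% against TBI, and 4.83% and 3.60% against DEIX. From TBI to TBI+DEIX, 1 monocyte gene (median -0.44) and 2 dendritic cell genes (median -0.34) were called lower, beside 3.41% of all genes. There the counts without that replicate were 2 monocyte genes higher and 1 lower, with a median of 0.09, and 1 dendritic cell gene higher and 3 lower, with a median of -0.05. In DEIX against control 2 monocyte genes rose, beside 4.52% of all genes, while Irf8 was at -0.30 without a call. For the dendritic cell list 7 genes again fell against control without that replicate, with a median of -0.97. Fn1, fibronectin, was at 92.0 ± 12.9 FPKM in control, 105 ± 19.3 after TBI, 51.1 ± 9.23 after TBI+DEIX and 210 ± 46.9 with DEIX alone (SD, n = 3), and so was lowest and highest in the same groups as Klf4. Fn1 does not stand for the whole monocyte list. Without TBI+DEIX replicate 1, 2 other genes of it were called higher in TBI+DEIX than in TBI. The summed level of the monocyte list was 9636 to 13227 FPKM in the 9 libraries outside TBI+DEIX and 2215, 14896 and 15394 in TBI+DEIX replicates 1 to 3. By that sum, its lowest and its 2 highest libraries were all in the group with the lowest Irf8 and Klf4. A sum is weighted to the genes of highest level. By the mean of log2(FPKM + 1) centred on each gene, TBI+DEIX replicates 1 to 3 were at -1.67, -0.15 and 0.05. By that mean the DEIX libraries, also highest in Klf4, were highest, at 0.46 to 0.67. No gene of either list was at 0 throughout a group. The part of cell numbers in these changes was not tested.

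Klf2 and Klf6, both zinc finger factors of the same family as Klf4, rose from TBI to TBI+DEIX, where Klf4 fell. Klf2 (ENSMUSG00000055148.7, chr8:72319033-72321656, plus strand) is known for keeping myeloid and T cells quiescent. Its start region is shown because it holds the 10 letters of the palindromic MEF2 site, through which flow and growth signals are known to reach this gene. Capitals in the window, at chr8:72318812-72319011 on the plus strand, mark that site (CTAAATTTAG), 2 GC boxes and 1 CRE core.
Klf2: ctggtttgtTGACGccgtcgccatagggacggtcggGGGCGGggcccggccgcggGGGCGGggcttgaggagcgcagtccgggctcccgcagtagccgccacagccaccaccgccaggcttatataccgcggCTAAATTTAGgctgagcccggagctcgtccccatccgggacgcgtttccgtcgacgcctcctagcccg
The MEF2 letters lay 118 to 109 bases before the start and were found in 11 of the 32851 windows, 0.0335%. The site occurred in none of the other member windows. The remaining windows held 4 GC boxes, 1 CACCC box (CACCC), 1 C/EBP core (GCAAT) and 1 CRE core for Cebpb, of which the CACCC box and CRE core overlap, as do 2 of the GC boxes. They held 1 GC box and 1 C/EBP core for Klf6, and 1 CACCC box each for Cebpa and Gfi1. A CACCC box stood in 44.4% and a C/EBP core in 19.6% of all windows. The PU.1 core (GAGGAA) was in no member window and in 18.8% of all.

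**Figure D2:**
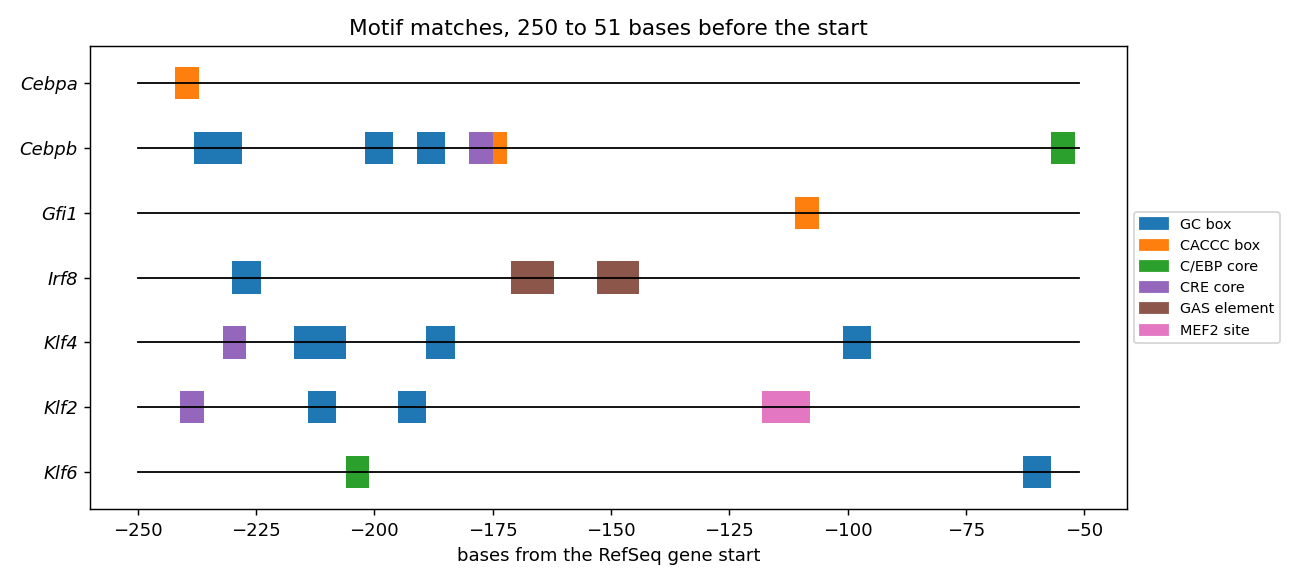
Places of the motif letters in the start regions of the 7 genes with a RefSeq window; the horizontal axis is the distance in bases before the transcript start, and each mark is 1 match, coloured by motif, on either strand. Irf8 has the only GAS elements and Klf2 the only MEF2 site, while GC boxes stand in 5 of the 7 genes.

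Klf2 was at 70.4, 74.3 and 96.5 FPKM in control and at 56.6, 50.7 and 50.9 after TBI. It was at 110, 99.7 and 99.3 FPKM in TBI+DEIX and at 76.4, 96.3 and 78.7 with DEIX alone. All TBI libraries were below all others and all TBI+DEIX libraries above all others, and DEIX overlapped control. It was the 1 member called in TBI against control, with a log2 change of -0.59 (SE 0.13, adjusted p = 0.0344), 1.5-fold lower. That call was lost when any single library of the 6 was left out (adjusted p from 0.0533 to 0.129), and with a mean of at least 5 FPKM (0.0592), the TPM scale (0.132) or the replicate block (0.0682). From TBI to TBI+DEIX it rose by 0.96 (SE 0.13, 95% interval 0.66 to 1.25, adjusted p = 0.0108), 1.94-fold, a call lost without TBI replicate 3 (adjusted p = 0.0649) and with only the 2 groups in the fit (0.144). TBI+DEIX differed from control by 0.37 (95% interval 0.07 to 0.66, adjusted p = 0.0585) and DEIX from control by 0.06 (95% interval -0.23 to 0.36).

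Klf6 (ENSMUSG00000000078.7, chr13:5861482-5870394, plus strand), a factor known from inflammatory macrophages, was at 65.1, 63.4 and 68.8 FPKM in control and at 92.8, 78.4 and 68.0 after TBI. It was at 115, 121 and 121 FPKM in TBI+DEIX and at 104, 101 and 110 with DEIX alone. Both groups given DEIX lay above both groups without it, and TBI overlapped control by 1 library. Klf6 rose with DEIX in unirradiated mice by a log2 change of 0.67 (SE 0.11, adjusted p = 0.00813), 1.59-fold, and in irradiated mice by 0.58 (SE 0.11, adjusted p = 0.0196), 1.5-fold. The difference between these changes was -0.09 (95% interval -0.43 to 0.26). From control to TBI+DEIX it rose by 0.85 (SE 0.11, adjusted p = 0.000512), 1.80-fold, and irradiation alone gave 0.26 (adjusted p = 0.238). The rise in unirradiated mice missed the threshold without control replicate 2 (adjusted p = 0.0506), and the rise in irradiated mice after rescaling the libraries to equal sums (TPM; 0.48, adjusted p = 0.0752). The latter also missed it without TBI replicate 3 (adjusted p = 0.0954) or TBI+DEIX replicate 3 (0.0674), and with only the 2 groups in the fit (0.145).

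Of the lineage-opening pair, Spi1 rose in irradiated mice given DEIX, and Cebpa was lower there than in mice given DEIX alone. Spi1 (ENSMUSG00000002111.8, chr2:91082390-91115756, plus strand), which encodes PU.1, was at 151, 159 and 184 FPKM in control and at 196, 162 and 151 after TBI. It was at 215, 284 and 323 FPKM in TBI+DEIX and at 268, 204 and 215 with DEIX alone. Every library given DEIX was above every library without it. Spi1 rose from TBI to TBI+DEIX by a log2 change of 0.68 (SE 0.17, adjusted p = 0.0386), 1.60-fold, and from control to TBI+DEIX by 0.71 (SE 0.17, adjusted p = 0.0109), 1.64-fold. DEIX alone gave 0.47 (95% interval 0.09 to 0.85, adjusted p = 0.126) and irradiation alone 0.04 (95% interval -0.34 to 0.42). The call from TBI to TBI+DEIX was lost in 7 of 14 alternatives: with no filter, with the replicate block, with only the 2 groups in the fit, and without TBI replicate 2 or 3 or TBI+DEIX replicate 2 or 3 (adjusted p from 0.06 to 0.166).

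Cebpa (ENSMUSG00000034957.10, chr7:35119293-35121928, plus strand), needed for the first granulocyte-monocyte progenitors, was at 22.2, 23.2 and 27.9 FPKM in control and at 21.2, 18.1 and 20.2 after TBI. It was at 24.8, 13.7 and 14.7 FPKM in TBI+DEIX and at 31.8, 32.2 and 30.6 with DEIX alone. TBI lay below control and DEIX above it without overlap, and the TBI+DEIX libraries were split, with replicate 1 far above the other 2. TBI+DEIX was lower than DEIX by a log2 change of -0.84 (SE 0.18, adjusted p = 0.0359), 1.80-fold. The other changes missed the threshold, with -0.29 for irradiation (adjusted p = 0.443), 0.36 for DEIX alone (adjusted p = 0.248), -0.20 for TBI+DEIX against TBI (adjusted p = 0.526) and -0.48 from control to TBI+DEIX (adjusted p = 0.0662). The call against DEIX was lost when any 1 of the other 5 libraries was left out (adjusted p from 0.0879 to 0.119). It was lost as well with no filter (adjusted p = 0.0509), a mean of at least 5 FPKM (0.0522), the replicate block (0.0565), the TPM scale (0.123) and only the 2 groups in the fit (0.291). With TBI+DEIX replicate 1 left out, the gene was called lower in TBI+DEIX in all 3 comparisons of that group, at -1.10 against DEIX (adjusted p = 0.00178), -0.74 against control (adjusted p = 0.000604) and -0.45 against TBI (adjusted p = 0.0154). The ratio of Spi1 to Cebpa FPKM was 6.79, 6.86 and 6.60 in control, 9.26, 8.91 and 7.50 after TBI, 8.69, 20.7 and 21.9 after TBI+DEIX and 8.43, 6.34 and 7.02 with DEIX alone. It was thus highest in TBI+DEIX replicates 2 and 3, and replicate 1 lay among the TBI libraries.

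Neither factor of the neutrophil route passed the adjusted threshold in any comparison, and of their tests only that of Gfi1 in TBI+DEIX against control had an unadjusted p under 0.05, at 0.0225. Gfi1 (ENSMUSG00000029275.18, chr5:107716657-107726036, minus strand) was at 18.0, 21.8 and 21.4 FPKM in control, 26.8, 23.8 and 19.2 after TBI, 34.1, 22.8 and 30.0 after TBI+DEIX and 33.2, 22.9 and 25.7 with DEIX alone. Both groups given DEIX lay above control without overlap. The log2 change from control to TBI+DEIX was 0.47 (95% interval 0.08 to 0.86, adjusted p = 0.0674; 0.024 without TBI+DEIX replicate 2) and 0.39 for DEIX (adjusted p = 0.203). Cebpe (ENSMUSG00000052435.7, chr14:54710360-54712174, minus strand) was at 113, 134 and 162 FPKM in control and at 187, 183 and 175 after TBI. It was at 95.1, 219 and 271 FPKM in TBI+DEIX and at 196, 102 and 164 with DEIX alone. TBI lay above control without overlap, at a log2 change of 0.43 (95% interval -0.33 to 1.18, adjusted p = 0.557), and TBI+DEIX replicate 1 was the lowest library of all. TBI+DEIX against TBI gave -0.03 for Cebpe with all libraries and 0.42 (adjusted p = 0.206) without that replicate. Against control the values were 0.40 with it and 0.85 (adjusted p = 0.0166) without it.

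The genes of the granules, which Cebpe is known to activate at the later stage, were counted from the lists. Of 13 secondary and tertiary granule genes, 6 rose from control to TBI+DEIX, as did 16.9% of all genes, and none fell, with a median log2 change of 0.79 against 0.02 over all genes. Without TBI+DEIX replicate 1, 11 of the 13 rose, all but Ngp and Camp, beside 23.2% of all genes. Cd177, a neutrophil surface protein, was at 571 ± 51.5 FPKM in control and 1406 ± 129 after TBI+DEIX (SD, n = 3), higher by a log2 change of 1.30 (adjusted p = 0.00142). Of 8 primary granule genes, Serpinb1a rose by 1.01 (adjusted p = 0.00747) and Elane, neutrophil elastase, changed by -0.94 (adjusted p = 0.0208), and the median was -0.22. Without that replicate, 3 primary granule genes were called lower and 1 higher, beside 15.3% and 23.2% of all genes. In TBI against control, 1 secondary granule gene, the integrin subunit gene Itgb2l, rose (0.55, adjusted p = 0.0249) while of the primary granule genes limma called 0, with 0 at an unadjusted p under 0.05. Of all genes, 3.99% were called in that comparison. Ngp, S100a8 and S100a9 were listed at 0 in 5, 2 and 4 libraries and at over 1000 FPKM in all others, so they carry no usable change. Ngp is still in the counts and median of the 13 secondary and tertiary granule genes.

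The stress factor Cebpb (ENSMUSG00000056501.3, chr2:167688915-167690418, plus strand) was at 35.2, 35.6 and 38.0 FPKM in control and at 52.9, 39.2 and 37.8 after TBI. It was at 68.8, 48.8 and 50.2 FPKM in TBI+DEIX and at 63.4, 68.2 and 45.1 with DEIX alone. Both groups given DEIX were above control without overlap and both overlapped TBI. Cebpb rose from control to TBI+DEIX by a log2 change of 0.60 (SE 0.18, adjusted p = 0.0319), 1.51-fold. That call was lost without TBI+DEIX replicate 1 (0.44, adjusted p = 0.071), without any 1 of the 3 control libraries and on the TPM scale (0.51, adjusted p = 0.145). DEIX alone gave 0.66 (95% interval 0.26 to 1.07, adjusted p = 0.0537; 0.0462 with the replicate block), TBI+DEIX against TBI gave 0.36 (adjusted p = 0.235) and irradiation alone 0.23 (adjusted p = 0.545). Cebpd (ENSMUSG00000071637.5, chr16:15887286-15891031, plus strand) was at 32.5 to 45.3 FPKM in control, 37.1 to 45.1 after TBI and 32.9 to 45.5 with DEIX alone, ranges that overlapped. In TBI+DEIX it was at 23.5, 66.5 and 66.7 FPKM, below every other library in replicate 1 and above every other in replicates 2 and 3, and with all libraries in the fit its log2 changes ranged from 0.04 to 0.29 without a call or an unadjusted p under 0.05. Without replicate 1, Cebpd was called higher in TBI+DEIX than in TBI (0.70, adjusted p = 0.0134), DEIX (0.74, adjusted p = 0.0224) and control (0.78, adjusted p = 0.00341). On the opposite strand, Tmem189 overlaps Cebpb and was at 27.0 to 41.3 FPKM, and Spidr overlaps Cebpd and was at 9.18 to 14.6 FPKM. The library kit keeps strand, but whether the estimates used it is not given in the sources used here.

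Counted by comparison, irradiation alone changed 1 of 10 members, Klf2, which was lower, and on the TPM scale Irf8 was called in its place. The background was 3.99% of all 10994 genes called and 3.10% called lower. In 4 members the 3 TBI libraries did not overlap the 3 control libraries, as in 38.2% of all genes: Klf2, Irf8 and Cebpa were lower and Cebpe was higher. The median size of the members' log2 changes was 0.27, against 0.16 over all genes.

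Between TBI+DEIX and TBI, 5 of 10 members were called, where 8.10% of all genes were. Klf2, Klf6 and Spi1 rose, beside 4.69% of all genes, and Irf8 and Klf4 fell, beside 3.41% of all genes. The same 5 members were those whose libraries did not overlap, a pattern shown by 27.2% of all genes. The median size of change was 0.47 over the members and 0.21 over all genes. With only these 6 libraries in the fit, limma called 0 of the 10 members and 0 genes, with 5 members and 2015 genes at an unadjusted p under 0.05. The adjusted p of the 5 members was then 0.144 for Klf2, 0.145 for Klf6, 0.155 for Irf8, 0.166 for Spi1 and 0.202 for Klf4, so the calls rest on the spread pooled over the 4 groups. Leaving out TBI replicate 3 likewise left 0 members called, with 5 at an unadjusted p under 0.05, and leaving out TBI+DEIX replicate 3 left only Klf2. Leaving out TBI replicate 1 left Spi1, Klf2 and Klf6, and leaving out TBI replicate 2 or TBI+DEIX replicate 2 left Irf8, Klf2 and Klf6. Leaving out TBI+DEIX replicate 1 left all 5 and added Cebpa and Cebpd.

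DEIX in unirradiated mice changed 1 member, Klf6, which rose. The background was 7.24% of genes called and 4.52% called higher. Libraries did not overlap in 7 members, against 40.6% of genes: Klf6, Cebpb, Klf4, Spi1, Gfi1 and Cebpa were higher and Irf8 was lower. With only the 6 libraries of these groups in the fit, Cebpa, Cebpb, Spi1 and Klf4 were called as well. Without control replicate 2, 0 members were called by limma and 2 had an unadjusted p under 0.05.

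Among mice given DEIX, irradiation lowered 3 members, Klf4, Irf8 and Cebpa, where 2.57% of genes were called and 1.76% called lower. Libraries did not overlap in 5 members, against 17.7% of genes, the same 3 and Klf2 and Klf6, which were higher in TBI+DEIX at log2 changes of 0.30 (adjusted p = 0.29) and 0.18 (adjusted p = 0.482). With only these 6 libraries in the fit, limma called 0 of the 10 members and 0 genes, with 3 members and 1035 genes reaching an unadjusted p under 0.05. TBI+DEIX and control differ in both treatments, and of the 5 comparisons between groups theirs had the most genes called. There 5 members were called, Klf6, Spi1 and Cebpb higher and Irf8 and Klf4 lower, in a comparison where 30.0% of all genes were called, 16.9% higher and 13.1% lower. Libraries did not overlap in 7 members, against 44.9% of genes, and those of Klf2 and Gfi1 were the further 2, both higher in TBI+DEIX. Leaving out TBI+DEIX replicate 1 gave 7 called members, with Cebpa lower and Cebpd and Cebpe higher added and Cebpb lost. The call of Cebpb was lost as well when any control replicate was left out, whereas Klf6, Spi1, Irf8 and Klf4 were called in each of these 6 fits.

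**Figure D3:**
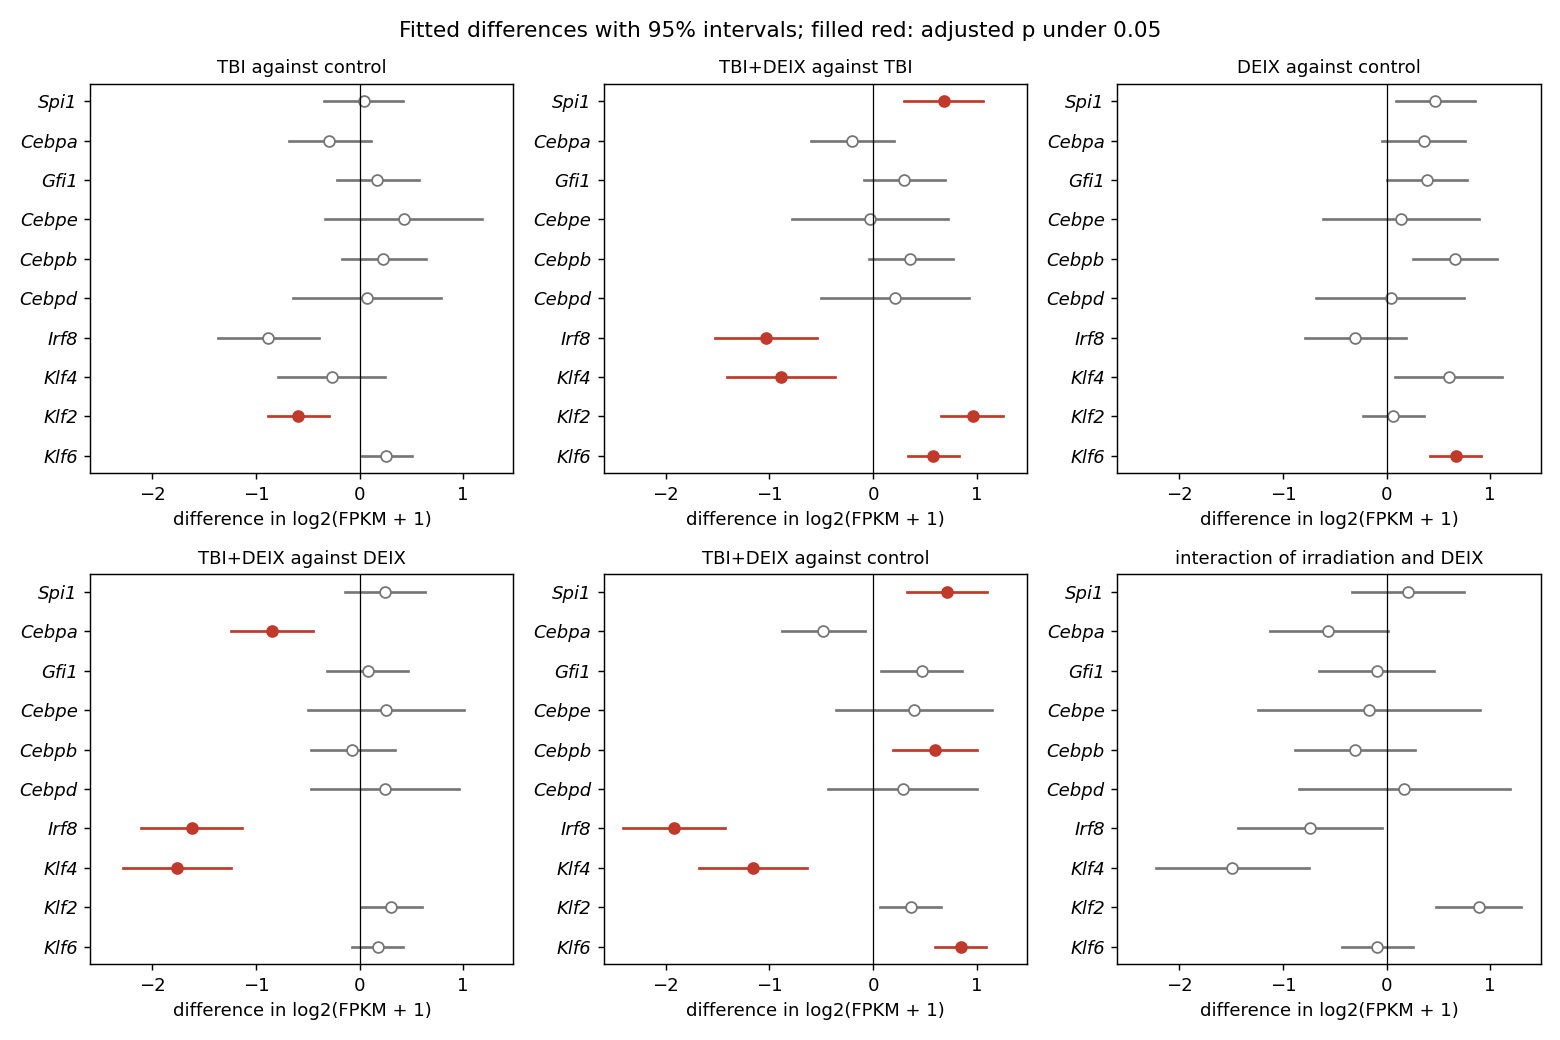
Fitted log2 changes of the 10 genes on the log2(FPKM + 1) scale (horizontal axes) in each comparison, with lines for the 95% interval and filled marks for genes called at an adjusted p under 0.05. In TBI+DEIX against TBI, Klf2, Klf6 and Spi1 are to the right of 0 and Irf8 and Klf4 to the left; in DEIX against control Klf4 is to the right at 0.60.

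Of the 10 genes, Klf2 and Klf4 showed the largest differences between the DEIX effect in irradiated and in unirradiated mice. This interaction was 0.89 for Klf2 (SE 0.19, unadjusted p = 0.000609, adjusted p = 0.115): TBI+DEIX was above TBI by 0.96 and DEIX above control by 0.06. For Klf4 it was -1.49 (SE 0.33, unadjusted p = 0.000948, adjusted p = 0.137): TBI+DEIX was below TBI by a change of -0.89 and DEIX above control by 0.60. For Irf8 it was -0.74 (unadjusted p = 0.0396, adjusted p = 0.609), and -0.44 without TBI+DEIX replicate 1 (adjusted p = 0.255). The interaction contains the TBI group, the only one with a named vehicle, so the oil cannot be told apart from it. With limma, 0 members passed the adjusted threshold, 3 had an unadjusted p under 0.05, and of all genes 22 (0.200%) were called and 825 reached an unadjusted p under 0.05. In the fit lacking TBI+DEIX replicate 1, Klf2 (0.84, adjusted p = 0.0392), Klf4 (-1.21, adjusted p = 0.0275) and Cebpa (-0.81, adjusted p = 0.011) were called. With array weights the same 3 were called, and on the TPM scale Klf4 alone (-1.6, adjusted p = 0.0304). The ratio of Klf2 to Klf4 FPKM was 3.64, 3.88 and 4.52 in control, 2.46, 3.64 and 3.73 after TBI, 20.7, 10.6 and 8.67 after TBI+DEIX and 2.44, 3.09 and 2.68 with DEIX alone. All TBI+DEIX libraries were above all others.

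The ratios of the neutrophil-route factors Gfi1 and Cebpe to Irf8 also set TBI+DEIX apart from the other groups. Gfi1 to Irf8 was 0.191, 0.231 and 0.221 in control and 0.458, 0.535 and 0.376 after TBI. It was 2.16, 0.639 and 1.16 after TBI+DEIX and 0.475, 0.288 and 0.311 with DEIX alone. All TBI+DEIX libraries were above all others and all controls below all others, while TBI and DEIX overlapped. Cebpe to Irf8 was 1.20, 1.42 and 1.68 in control, 3.20, 4.13 and 3.43 after TBI, 6.02, 6.15 and 10.5 after TBI+DEIX and 2.81, 1.28 and 1.99 with DEIX alone. Here too TBI+DEIX was highest and TBI next, without overlap, while DEIX overlapped control. These ratios are a description, since they reuse values tested above. Both divide by Irf8, and neither Gfi1 nor Cebpe was called in any comparison with all libraries in the fit.

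**Figure D4:**
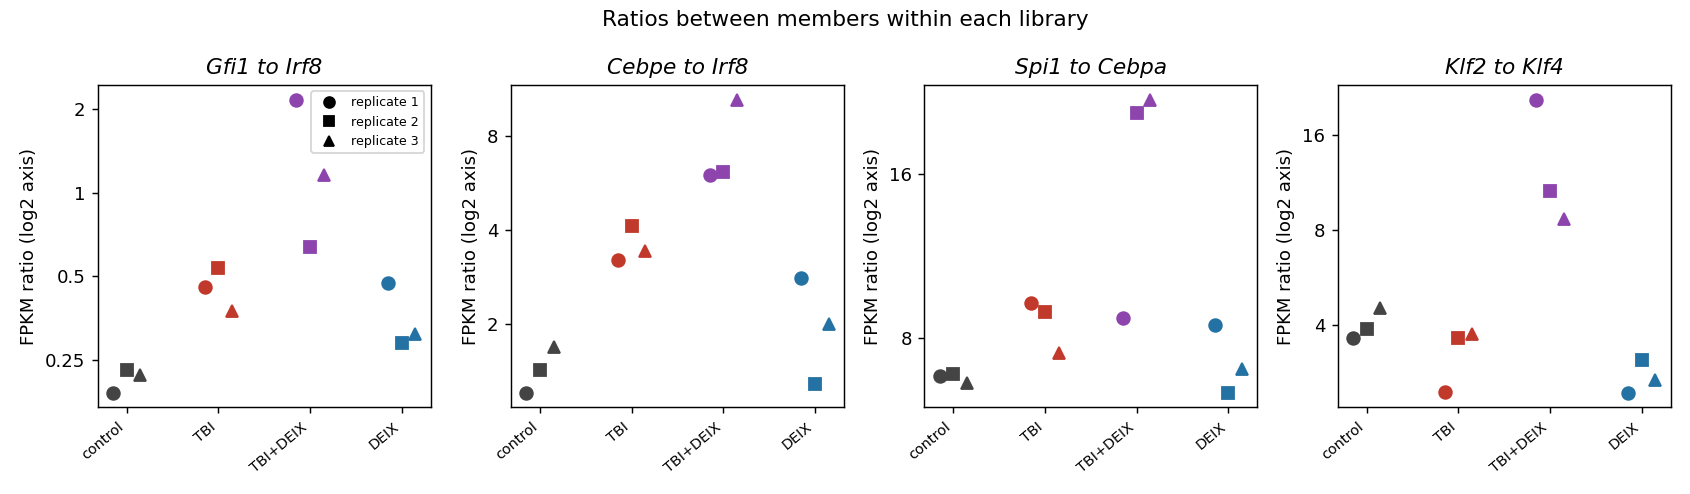
Ratios of FPKM between pairs of the genes in each library (vertical axes, log2 scale), by group, with replicates 1, 2 and 3 as circle, square and triangle. In TBI+DEIX the Gfi1 to Irf8 ratio spans 0.639 to 2.16, and in control it spans 0.191 to 0.231.

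Signals and partners of the 10 genes were counted from lists. Of 12 cytokine receptor genes of the myeloid lineage, limma called 0 in TBI against control, with 1 at an unadjusted p under 0.05. From TBI to TBI+DEIX 1 rose, Csf2rb, the common β chain of the GM-CSF, IL-3 and IL-5 receptors, from 86.2 ± 24.3 to 196 ± 38.8 FPKM (SD, n = 3; log2 change 1.19, adjusted p = 0.0177). Of all genes, 4.69% were called higher there. Csf2rb also rose with DEIX alone by 1.07 (adjusted p = 0.019), 1 of 3 receptor genes that did, beside 4.52% of all genes. Without TBI+DEIX replicate 1, 5 receptor genes rose from TBI to TBI+DEIX and 2 fell, in a fit that called 16.2% of all genes higher and 9.59% lower there. Flt3, the receptor for the dendritic cell growth factor, was lower in TBI+DEIX than in DEIX by a change of -1.42 (adjusted p = 0.0191). Csf3r, the G-CSF receptor, was at 219 ± 3.41 FPKM in control, 189 ± 15.4 after TBI, 280 ± 157 after TBI+DEIX and 303 ± 35.4 with DEIX alone (SD, n = 3), and with all libraries in the fit it was called in no comparison.

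Of 13 partners and regulators, Trib2, an adaptor known for the degradation of C/EBPα, was called in 3 comparisons. It was at 5.68 ± 0.254 FPKM in control, 1.34 ± 0.586 after TBI, 0.846 ± 0.395 after TBI+DEIX and 1.82 ± 0.312 with DEIX alone (SD, n = 3). It fell with irradiation by 1.55 on the log2 scale (adjusted p = 0.00176) and with DEIX alone by 1.25 (adjusted p = 0.00753). Of all genes, 3.99% and 7.24% were called in these comparisons, in that order. Ep300, a histone acetyltransferase, and Rcor1, a co-repressor, were the other genes of the list called. They were higher in TBI+DEIX than in control by 0.51 (adjusted p = 0.0112) and 0.31 (adjusted p just under the threshold, 0.05 when rounded). In that comparison 16.9% of all genes were called higher. Rcor1 lost its call there without TBI+DEIX replicate 1. The co-repressor gene Hdac1 was among those without a call. Without TBI+DEIX replicate 1 the list had 1 call higher and 2 lower in TBI+DEIX against control, where 23.2% and 15.3% of all genes were called.

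Of 26 tested genes for other myeloid and progenitor factors, irradiation alone lowered 2, beside 3.10% of all genes. Myb, a factor of proliferating progenitors, was at 78.9 ± 2.02 FPKM in control and 46.0 ± 6.55 after TBI (SD, n = 3; log2 change -0.77, adjusted p = 0.00643). It was as low with DEIX alone, at 45.9 ± 2.23 (-0.77, adjusted p = 0.00753). Meis1, a stem cell factor, changed by -0.84 (adjusted p = 0.00335) and was also lower in TBI+DEIX than in DEIX. Stat3, which carries G-CSF and IL-6 signals, rose with DEIX in unirradiated mice by 0.76 (adjusted p = 0.00753) and in irradiated mice by 0.85 (adjusted p = 0.0108). From control to TBI+DEIX 5 of the 26 rose and 6 fell, beside 16.9% and 13.1% of all genes. Without TBI+DEIX replicate 1, 9 rose and 7 fell, beside 23.2% and 15.3%. Of 13 tested relatives in the C/EBP and KLF families, Klf7 rose with DEIX in both settings, by 0.69 (adjusted p = 0.037) and 0.87 (adjusted p = 0.0201), and Klf13 rose by 0.97 (adjusted p = 0.0303) in unirradiated mice. Of all genes, 4.52% were called higher with DEIX in unirradiated mice and 4.69% in irradiated mice. From control to TBI+DEIX 4 relatives rose, beside 16.9% of all genes, and 3 rose and 1 fell without TBI+DEIX replicate 1, beside 23.2% and 15.3%.

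**Figure D5:**
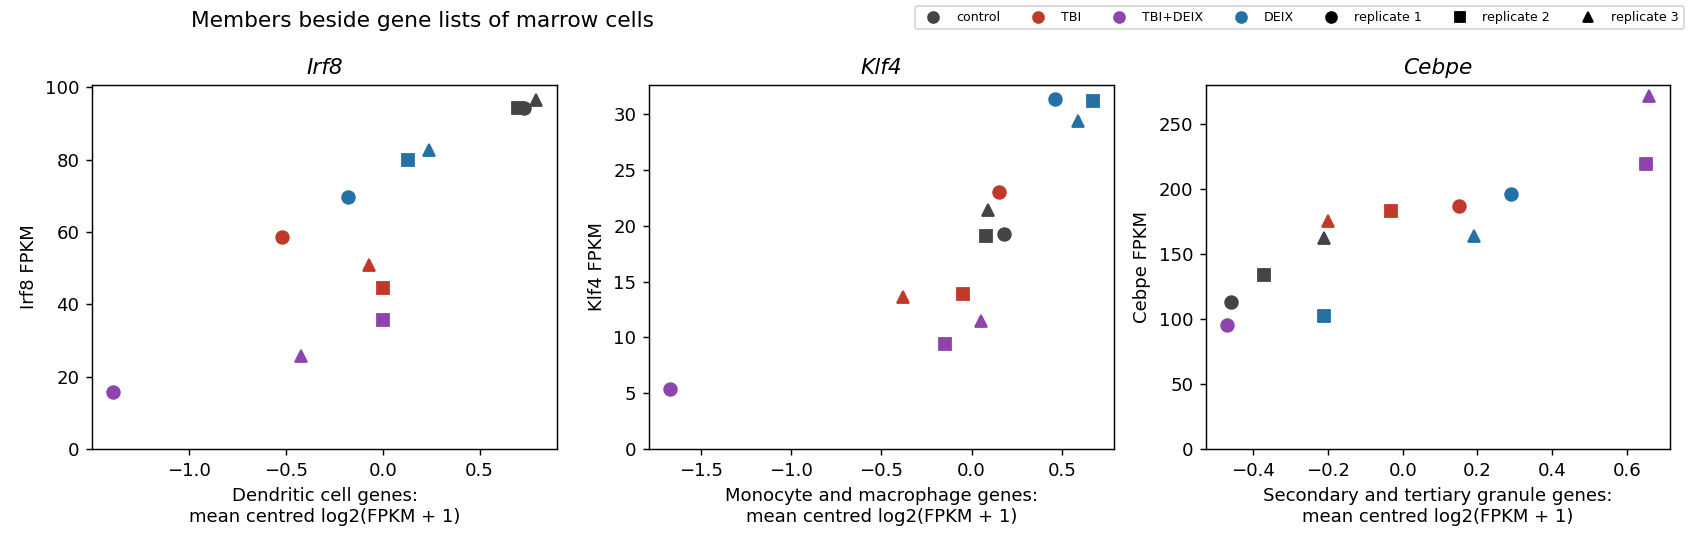
FPKM of Irf8, Klf4 and Cebpe (vertical axes, from 0) against the level of the dendritic cell, monocyte and macrophage, and secondary and tertiary granule lists (horizontal axes, mean over the list of log2(FPKM + 1) centred on each gene's mean over 12 libraries), 1 point per library, coloured by group, with replicates 1, 2 and 3 as circle, square and triangle. TBI+DEIX replicate 1 is lowest on both axes of all 3 panels, at -1.39 for the dendritic cell, -1.67 for the monocyte and -0.47 for the granule list.

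Marker lists of other cell types also differed between libraries, and their part in the members' values was not tested. The 12 erythroid genes summed to 3750 to 5886 FPKM in control, 2072 to 9295 after TBI, 263 to 1857 after TBI+DEIX and 1532 to 9129 with DEIX alone. The 11 B cell genes summed to 504 to 630 FPKM in control, 28.5 to 348 after TBI, 7.87 to 193 after TBI+DEIX and 72.8 to 110 with DEIX alone. Both lists had their lowest library in TBI+DEIX, and erythroid RNA did not overlap between TBI and TBI+DEIX. Of 12 tested mature neutrophil genes, 5 rose from control to TBI+DEIX and none fell (median log2 change 0.33), beside 16.9% of all genes that rose. The 12 include S100a8 and S100a9, whose values are not usable. Without TBI+DEIX replicate 1, 8 rose (median 1.01), beside 23.2%. The summed level of 11 of the 13 listed was 2105 to 2179 FPKM in control, 2026 to 2764 after TBI, 2387, 4607 and 4581 in TBI+DEIX replicates 1 to 3 and 2800 to 3663 with DEIX alone. Of 8 megakaryocyte and platelet genes, 7 fell from control to TBI+DEIX, with TBI+DEIX replicate 1 or without it, and 5 from control to TBI, beside 13.1% and 3.10% of all genes. Their sum was 109 to 168 FPKM in control, 23.9 to 45.3 after TBI, 22.6 to 39.9 after TBI+DEIX and 61.5 to 103 with DEIX alone. Of 12 tested immediate early genes, which respond quickly to many stimuli, Junb and Ier3 rose from TBI to TBI+DEIX, beside 4.69% of all genes, and 4 rose when TBI+DEIX replicate 1 was left out, beside 16.2%. The mean level of that list, centred on each gene's mean, was -0.32 to -0.31 after TBI, below the -0.09 to 0.33 of all other libraries, and TBI was also the group with the lowest Klf2.

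For each gene the 3 tested genes with the closest pattern over the 12 libraries were taken by Pearson's r of log2(FPKM + 1), among 8172 genes with a mean of at least 5 FPKM. The 12 points are 4 groups of 3, and libraries share their scaling, so the r values are a description. Closest to Irf8 were Thbd (r = 0.982), thrombomodulin, then Rasa4 (0.979) and Calhm2 (0.978). Thbd was at 8.77 FPKM on average in control, 5.33 after TBI, 2.78 after TBI+DEIX and 7.36 with DEIX alone. Closest to Klf4 were Tmem150b (0.965), Ms4a6c (0.957), a monocyte gene, and Tmem135 (0.952). Closest to Klf6 were Fam217b (0.996), Fgr (0.987), a myeloid Src-family kinase, and Aatk (0.986). Spi1 was nearest to Tmem189 (0.988), the gene that overlaps Cebpb, and to Skap2 (0.981) and Hcls1 (0.975), both adaptors of blood cells. Cebpe was nearest to Tmem216 and Mgst2 (both 0.956), Cebpd to Pbx2 (0.974), Cebpb to Eif5 (0.956), Gfi1 to Pgam1 (0.946), Cebpa to Tbc1d5 (0.931) and Klf2 to Chkb (0.907), the lowest best match of the 10.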

How the data were processed

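RNA sequencing of whole mouse bone marrow gave 12 libraries, 3 in each of 4 groups taken from the sample titles. The deposited table holds FPKM values made by the authors, 1 per gene and library. STAR 2.6, Cufflinks 2.2.1 and the build mm10 are named in the submitters' processing notes, without their roles, and the annotation used is not given in the sources used here. The FPKM table holds no counts, so the depth of the libraries is unknown and no count model was used. All 21853 identifiers matched GENCODE vM21 on GRCm38, the source of symbols and coordinates. Promoter windows were taken from RefSeq on GRCm38.p6.

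Values were analysed as log2(FPKM + 1), a scale that understates changes of low genes. Genes with at least 1 FPKM in at least 3 of 12 libraries, 10994 in all, entered limma (version 3.58.1 under R 4.3.3, with a mean-variance trend) as 1 model of 4 group means, with 8 residual degrees of freedom and Benjamini-Hochberg adjustment over all tested genes. Intervals are 95% intervals of the fitted change. On simulated data for TBI against control over 10994 genes, 82% of log2 changes of 1 and 96% of log2 changes of 2 were recovered, with 6 false calls. Summaries and figures were made in Python 3.11.15 with pandas 2.3.3 and matplotlib 3.10.9.

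All members are named. Of each gene list, the 3 genes with the highest mean FPKM and the 3 with the lowest adjusted p could be named, and for each member the 3 genes with the highest correlation. The members and lists were chosen with earlier results of these data known. Alternatives were a pseudocount of 0.1, no filter, a mean of at least 5 FPKM, rescaling to equal sums (TPM) without S100a8, S100a9 and Ngp, median-of-ratios scaling, array weights, the replicate number as a block, fits on the compared groups alone, and leaving out each library in turn. List counts without TBI+DEIX replicate 1 were added after seeing the data.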

Additional observations from a re-analysis of the deposited data

Results flagged for a closer look

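The Klf2 libraries of irradiated and unirradiated mice lay in opposite order without and with DEIX. All 3 TBI libraries (50.7 to 56.6 FPKM) were below all 3 control libraries (70.4 to 96.5 FPKM), and all 3 TBI+DEIX libraries (99.3 to 110 FPKM) were above all 3 DEIX libraries (76.4 to 96.3 FPKM). The log2 change was -0.59 without DEIX (adjusted p = 0.0344) and 0.30 with it (adjusted p = 0.29, not called), and libraries did not overlap in 38.2% and 17.7% of all genes in these comparisons. The difference between the changes, tested in limma as an interaction, was 0.89 on the log2 scale (unadjusted p = 0.000609, adjusted p = 0.115).

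The Klf4 libraries with and without DEIX lay in opposite order in irradiated and unirradiated mice. All 3 TBI+DEIX libraries (5.35 to 11.5 FPKM) were below all 3 TBI libraries (13.6 to 23.0 FPKM), and all 3 DEIX libraries (29.4 to 31.3 FPKM) were above all 3 controls (19.1 to 21.4 FPKM). The log2 change with DEIX was -0.89 in irradiated mice (adjusted p = 0.0434) and 0.60 in unirradiated mice (adjusted p = 0.147, not called), and libraries did not overlap in 27.2% and 40.6% of all genes. The interaction was -1.49 (unadjusted p = 0.000948, adjusted p = 0.137). Both interactions contain the TBI group, the only one with a named vehicle, so the oil cannot be told apart from them. Both interactions missed the adjusted threshold in the fit reported here. Both passed it without TBI+DEIX replicate 1 and with array weights (adjusted p = 0.00436 for Klf2 and 0.00369 for Klf4), and that of Klf4 also on the TPM scale (-1.6, adjusted p = 0.0304).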

How the results depend on the processing

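From control to TBI+DEIX, Spi1, Irf8, Klf4 and Klf6 kept their calls under all 14 alternatives. The cause of the shifts below was not tested, apart from what each alternative changes by construction. Leaving out a library of the groups compared gave these ranges for the members and genes called: 0 and 153 to 259 for TBI against control, 0 to 7 and 5 to 2836 for TBI+DEIX against TBI, 0 to 2 and 146 to 938 for DEIX against control, 2 to 4 and 50 to 927 for TBI+DEIX against DEIX, 4 to 7 and 2004 to 4232 for TBI+DEIX against control, and 0 to 3 and 4 to 331 for the interaction. TBI+DEIX replicate 1 also moved comparisons that lack its group, through the pooled spread: without it 1337 genes were called for TBI against control and 2394 for DEIX against control.

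With array weights, which weighted TBI+DEIX replicate 1 at 0.0708 and control replicate 2 at 11, the members called were 6, 7, 6, 4, 9 and 3 in that order and the genes 4218, 4489, 4507, 948, 6188 and 532. With only the compared groups fitted they were 2, 0, 5, 0 and 5 members and 1417, 0, 2057, 0 and 2181 genes. Without a filter the genes were 675 for TBI against control and 37 for the interaction, and 3 members were called in TBI+DEIX against TBI. A mean of at least 5 FPKM gave 134 genes and 0 members for TBI against control, with 3 at an unadjusted p under 0.05, 104 genes for TBI+DEIX against DEIX and 7 for the interaction. A pseudocount of 0.1 gave 11 genes for the interaction, and median-of-ratios scaling 2 members for TBI against control. Rescaling to equal sums (TPM) gave 291, 488 and 408 genes for TBI against control, TBI+DEIX against TBI and DEIX against control, and 1 member for the interaction. That scaling moved the median log2 change by -0.1 in TBI+DEIX against TBI and lowered the share of called genes that were higher from 57.9% to 29.9% there, from 62.4% to 49% for DEIX against control, from 31.4% to 16.7% for TBI+DEIX against DEIX, from 56.2% to 38.5% for TBI+DEIX against control and from 95.5% to 75% for the interaction. No call of a member changed direction.

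The replicate block, which takes the replicate number as a term, gave 0 members for TBI against control (2 at an unadjusted p under 0.05), 3 members and 474 genes for TBI+DEIX against TBI, 2 members for DEIX against control and 180 genes for TBI+DEIX against DEIX. The numbers were not taken to pair libraries, since 3 of 18 same-number correlations of deviations from the group means were over 0.1, from -0.45 to 0.24. In 7 of 36 comparisons of a library with another group it correlated best with its own number.

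The changes that turned sign were not called with all libraries in the fit. With array weights these were Cebpd in TBI against control (0), Cebpe in TBI+DEIX against TBI (0.35), Gfi1 in TBI+DEIX against DEIX (-0.1) and Cebpe in the interaction (0.08). Over the fits without a single library, these changes took both signs: for TBI against control Cebpd (-0.05 to 0.19) and Spi1 (-0.07 to 0.12), for TBI+DEIX against TBI Cebpd (-0.03 to 0.7) and Cebpe (-0.33 to 0.42), for DEIX against control Cebpd (-0.08 to 0.17), Cebpe (-0.06 to 0.41) and Klf2 (-0.04 to 0.2), for TBI+DEIX against DEIX Cebpb (-0.25 to 0.05), Cebpe (-0.04 to 0.71) and Gfi1 (-0.04 to 0.24), and for the interaction Cebpd (-0.07 to 0.66), Cebpe (-0.47 to 0.28), Gfi1 (-0.22 to 0.07) and Klf6 (-0.19 to 0.03).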
